A study of Homo sapiens with 12 samples.

Results

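The 10 genes described here are the AP-1 genes FOS, FOSB, FOSL1, FOSL2, JUN, JUNB and JUND and 3 other immediate early genes, EGR1, MYC and IER3. They were taken by symbol from a table of 57730 genes, and all 10 were found. All 10 also passed the filter on low counts, which kept 14706 genes for testing. IER3 is the one member whose product is not a DNA-binding transcription factor.

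RNA was sequenced in LM3 cells, a lung-metastatic derivative of MDA-MB-231, an established human breast cancer line that lacks oestrogen receptor. The 12 libraries fell into 4 groups of 3. Cells carried a control short hairpin RNA (shControl) or a hairpin against ACSL5 (shACSL5), and each kind of cell was sequenced without and with palmitic acid (shControl_PA and shACSL5_PA). ACSL5 is an acyl-CoA synthetase that joins long-chain fatty acids, such as the saturated fatty acid palmitate, to coenzyme A. All 4 groups carried a hairpin and were grown in serum. How much palmitic acid was given, for how long and in which vehicle was not given in the sources used here, nor were the hairpin's sequence and whether the cells were a clone or a pool. Effects of the vehicle and of the fatty acid itself cannot be told apart. Nor can loss of ACSL5 be told apart from other effects of the hairpin or of a selected clone. Knockdown below names the hairpin comparison. The labels do not state that libraries of one group came from separate cultures, so a p-value measures only the spread among these samples, and that spread may be technical.

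Immediate early genes are switched on by growth factors, stress and inflammatory signals through kinases that act on factors already in the cell, without new protein synthesis. FOS-family proteins cannot pair with themselves and bind DNA as partners of a JUN-family protein, and the resulting AP-1 dimers differ in strength and in the genes they favour. In basal-like breast cancer cells FOSL1 is known as the dominant FOS-family protein, and MYC as a driver of ribosome and nucleotide synthesis.

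Library totals ran from 16788694 to 21814751 counts. The hairpin left 7.82% of the ACSL5 level in untreated cells and 8.01% under palmitic acid, with no overlap of libraries (exact permutation test, 2-sided, p = 0.1 in each, the smallest that 3 against 3 allows). Of the markers of MDA-MB-231 cells, VIM lay between 2521 and 4100 CPM (read counts scaled to a common library size) and AXL, CD44 and MSN were abundant. ESR1 and PGR stayed at or below 0.447 CPM, and ERBB2 lay between 54.8 and 84.5 CPM. Among markers of other cells, PTPRC, CD14 and CD3E (immune) and CDH5 and VWF (endothelium) did not exceed 1.75 CPM in any library. DCN and LUM (fibroblasts) did not exceed 0.117 CPM. CD68, also an immune marker, and COL1A1 and PDGFRB, also fibroblast markers, lay between 3.94 and 52.9 CPM. Of the luminal epithelial markers, CDH1 stayed at or below 0.138 CPM and EPCAM lay between 1.67 and 5.12 CPM. GATA3 lay between 4.83 and 9.45 CPM and KRT8 between 185 and 314 CPM. In bulk RNA, fewer cells expressing a gene and less RNA per cell cannot be told apart.

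FOSB, JUNB and JUND lie on chromosome 19. In GRCh38 (GENCODE release 29), FOS (ENSG00000170345) spans chr14:75278774-75282230 on the plus strand, FOSB (ENSG00000125740) chr19:45467995-45475179 on the plus strand, FOSL1 (ENSG00000175592) chr11:65892049-65900573 on the minus strand and FOSL2 (ENSG00000075426) chr2:28392448-28417312 on the plus strand. JUN (ENSG00000177606) spans chr1:58780788-58784327 on the minus strand, JUNB (ENSG00000171223) chr19:12791496-12793315 on the plus strand and JUND (ENSG00000130522) chr19:18279760-18281622 on the minus strand. EGR1 (ENSG00000120738) spans chr5:138465490-138469315 on the plus strand and IER3 (ENSG00000137331) chr6:30743199-30744554 on the minus strand. MYC (ENSG00000136997) has 3 exons in its longest transcript. The 3 JUN genes each consist of 1 exon, and each FOS-family gene has 4 exons in its longest transcript. Exons of HOOK2, on the opposite strand, cover 14.2% of the exon bases of JUNB, and those of IER3-AS1 cover 26.5% of those of IER3. Whether reads were counted by strand is not given in the sources used here. It is therefore unknown whether reads from those stretches were counted for either gene of a pair or for neither. The lengths used for levels per kilobase include those stretches. HOOK2 averaged 7.96 to 10.1 CPM and IER3-AS1 0.562 to 1.07 CPM over the groups, against at least 39.1 CPM for JUNB and 102 CPM for IER3 in every library.

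The promoters of EGR1, FOSB, JUND and JUNB are shown. Windows of FOS, FOSL2 and JUN are not shown, since 54, 250 and 250 of their bases lay past the annotated gene start. EGR1, FOSB and JUND were each called higher after knockdown and after palmitic acid in control cells. JUNB was called lower after knockdown and was not called after palmitic acid in control cells. Each line gives up to 250 bases before the start of transcription, 5′ to 3′ on the gene's own strand, from RefSeq (GRCh38.p14): chr5:138465229-138465478 for EGR1 (plus strand), chr19:45467746-45467994 for FOSB (plus), chr19:18281623-18281872 for JUND (minus) and chr19:12791236-12791485 for JUNB (plus). Capitals mark the motifs described after the lines.
EGR1: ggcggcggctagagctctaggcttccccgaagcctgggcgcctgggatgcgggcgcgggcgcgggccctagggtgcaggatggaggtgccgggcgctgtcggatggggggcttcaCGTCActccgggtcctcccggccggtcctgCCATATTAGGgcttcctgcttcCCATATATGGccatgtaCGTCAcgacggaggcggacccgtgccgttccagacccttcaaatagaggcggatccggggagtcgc
FOSB: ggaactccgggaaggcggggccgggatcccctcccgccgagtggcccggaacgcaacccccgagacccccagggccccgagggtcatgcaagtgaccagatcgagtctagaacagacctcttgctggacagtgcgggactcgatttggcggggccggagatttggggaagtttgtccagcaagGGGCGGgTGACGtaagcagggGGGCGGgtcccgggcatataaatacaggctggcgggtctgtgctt
JUND: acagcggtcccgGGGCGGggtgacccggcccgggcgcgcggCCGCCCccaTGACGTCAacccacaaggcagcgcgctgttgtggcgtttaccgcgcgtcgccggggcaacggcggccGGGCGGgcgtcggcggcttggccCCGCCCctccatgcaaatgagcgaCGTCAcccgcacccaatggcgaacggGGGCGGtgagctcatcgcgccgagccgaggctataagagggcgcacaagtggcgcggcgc
JUNB: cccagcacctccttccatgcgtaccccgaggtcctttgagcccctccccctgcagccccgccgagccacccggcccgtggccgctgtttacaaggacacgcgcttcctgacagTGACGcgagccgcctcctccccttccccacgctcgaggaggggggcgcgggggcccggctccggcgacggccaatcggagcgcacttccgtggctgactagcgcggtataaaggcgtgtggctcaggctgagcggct

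Motifs were searched on both strands of these 250-base windows for the 7 members with an entry, FOS, FOSB, FOSL2, JUN, JUNB, JUND and EGR1. FOSL1, MYC and IER3 had none. For FOSL2 and JUN all 250 bases, and for FOS 54, lay past the annotated gene start. The counts over the 7 include these windows. The EGR1 promoter held 2 CArG boxes, the element bound by serum response factor, starting at -105 and -83 from the start, and it was the 1 member of the 7 with that box, which 1.16% of all 35116 promoters held. The JUND promoter held the full cyclic AMP response element (TGACGTCA, bound by CREB and by ATF2 with JUN) at -200, as 1 of the 7 and against 1.65% of all promoters, together with 5 SP1 boxes (GGGCGG). FOSB held SP1 boxes at -67 and -46. SP1 boxes were found in 5 of the 7 members and in 42.6% of all promoters. The AP-1 site (TGAGTCA or TGACTCA, 4.20% of all promoters), the E-box of MYC (CACGTG, 6.34%) and the EGR1 site (GCGTGGGCG or GCGGGGGCG, 5.37%, which can share letters with an SP1 box) were not among the letters of any of the 7. The shorter TGACG, which is also part of the full response element, stood in all 7 windows and in 21.2% of all promoters, and it was added to the search after the sequences had been seen. These matches describe letters only.

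Of the 10 genes, 9 passed the test after knockdown in untreated cells, 4 higher (FOSB, JUND, EGR1 and MYC) and 5 lower (FOS, FOSL2, JUN, JUNB and IER3). All expressed genes are the background for that count: 62.3% passed in this comparison, 29.7% higher and 32.6% lower. Palmitic acid in control cells changed 8 of the 10, with FOS, FOSB, FOSL2, JUND and EGR1 higher and FOSL1, JUN and IER3 lower, where 28.7% of all genes passed, 15.1% higher and 13.5% lower. Palmitic acid in knockdown cells changed 5, with FOS and EGR1 higher and JUNB, MYC and IER3 lower, against 21.9% of all genes, 12.1% higher and 9.78% lower. Knockdown under palmitic acid changed 8, with FOSL1, JUND and MYC higher and FOS, FOSL2, JUNB, EGR1 and IER3 lower, against 50.5% of all genes, 24.4% higher and 26.1% lower. A gene passed where edgeR's quasi-likelihood test gave an adjusted p (Benjamini-Hochberg over the 14706 genes) under 0.05. The median log2 change of the 10 was -0.095, 0.13, 0.040 and -0.21 in the 4 comparisons in that order, beside -0.020, -0.0026, 0.012 and -0.0029 over all genes tested. The comparisons share groups, so their counts are not independent of each other. Without TMM scaling, 35.9% in place of 52.8% of all genes called with palmitic acid in control cells were higher, while the directions of the members that passed stayed as given.

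**Figure D1:**
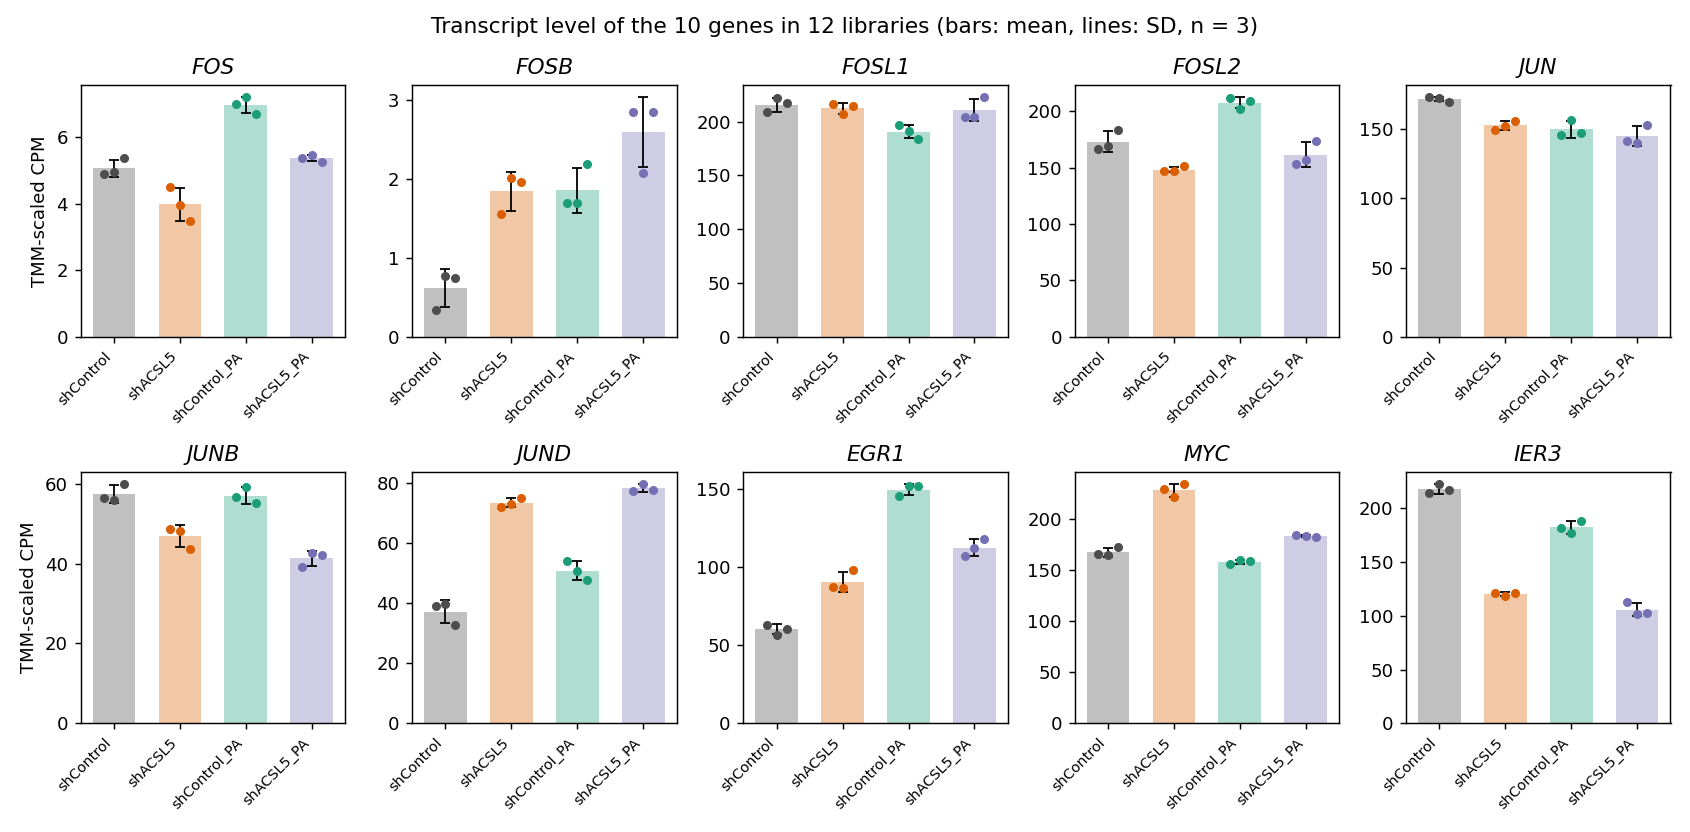
TMM-scaled CPM of each of the 10 genes (vertical axis, from 0, a separate scale for each gene) in the 4 groups. Points are libraries, bars the mean and lines the SD of 3 libraries. FOS and FOSB sit below 8 CPM, the untreated and palmitate groups of JUND separate by hairpin, and EGR1 is highest in shControl_PA.

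FOS, the founding member of its family and the textbook immediate early gene, was scarce in these cells and moved in opposite directions with the 2 treatments. It measured 4.90, 4.94 and 5.37 CPM in shControl and 4.49, 3.97 and 3.48 CPM in shACSL5. With palmitic acid it measured 7.00, 7.19 and 6.70 CPM in shControl_PA and 5.39, 5.46 and 5.27 CPM in shACSL5_PA. The shControl_PA libraries were the highest and the shACSL5 libraries the lowest, and no 2 groups compared overlapped. Palmitic acid raised FOS by 0.46 ± 0.14 (log2, SE, adjusted p = 0.0185) in control and 0.43 ± 0.15 (adjusted p = 0.0409) in knockdown cells. Knockdown lowered it, with a log2 change of -0.35 ± 0.15 (adjusted p = 0.0494) without and -0.37 ± 0.14 (adjusted p = 0.0304) with palmitic acid. These rest on 66 to 128 counts a library. The knockdown call in untreated cells lay at the threshold and held in 2 of 19 alternative settings, with adjusted p between 0.0275 and 0.181. The other knockdown call held in 12 of 19, with adjusted p up to 0.0985. The palmitate call held in 15 of 19 in control cells and in 10 of 19 in knockdown cells.

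FOSB, which encodes both a full-length factor and a truncated splice form, was the least abundant member and had the largest fold changes of the 10 in both untreated-cell comparisons. It had 6, 14 and 14 counts in the shControl libraries (0.342, 0.769 and 0.737 CPM) and 34, 34 and 37 in shACSL5 (1.56, 2.01 and 1.95 CPM). Under palmitic acid it had 31, 30 and 40 counts in shControl_PA (1.69, 1.69 and 2.18 CPM) and 58, 41 and 53 in shACSL5_PA (2.84, 2.07 and 2.85 CPM). Every shControl library lay below every library of the other 3 groups. FOSB rose 2.94-fold with knockdown (log2 1.56 ± 0.33, adjusted p = 0.000316) and 2.97-fold with palmitic acid in control cells (log2 1.57 ± 0.34, adjusted p = 0.00106). From either of those states to both treatments together the change did not pass. It was 0.50 (95% interval -0.086 to 1.08, adjusted p = 0.227) for palmitic acid in knockdown cells and 0.48 (-0.10 to 1.06, adjusted p = 0.166) for knockdown under palmitic acid.

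FOSL1, encoding FRA-1, varied least of the 4 FOS-family transcripts over the 4 groups. The libraries measured 209, 222 and 217 CPM in shControl and 217, 207 and 214 CPM in shACSL5, with overlap. Palmitic acid gave 197, 191 and 184 CPM in shControl_PA, below every other library, and 205, 205 and 223 CPM in shACSL5_PA. FOSL1 fell with palmitic acid in control cells (log2 -0.18 ± 0.039, adjusted p = 0.00132) and was higher with knockdown under palmitic acid (log2 0.14 ± 0.039, adjusted p = 0.00365). The knockdown change in untreated cells was -0.022 (95% interval -0.10 to 0.059, adjusted p = 0.641), and the palmitate change in knockdown cells was -0.013 (-0.094 to 0.068, adjusted p = 0.854).

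FOSL2, encoding FRA-2, had changes of the same sign as FOS in all 4 comparisons, with smaller errors. It measured 166, 169 and 183 CPM in shControl, 147, 147 and 151 CPM in shACSL5, 212, 202 and 209 CPM in shControl_PA and 154, 157 and 174 CPM in shACSL5_PA. The shControl_PA libraries stood above all others, and shACSL5_PA overlapped shControl. Palmitic acid raised it in control cells (log2 0.26 ± 0.045, adjusted p = 0.000104). Knockdown lowered it without palmitic acid (log2 -0.22 ± 0.045, adjusted p = 0.000173) and with it (-0.36 ± 0.045, adjusted p = 4.12e-07). In knockdown cells the palmitate change of 0.12 ± 0.045 just missed the threshold (adjusted p = 0.0576) although all 3 treated libraries lay above the untreated ones.

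JUN, whose protein forms the most active AP-1 dimers with FOS, was highest in the untreated control cells. It measured 173, 172 and 170 CPM in shControl, 150, 153 and 156 CPM in shACSL5, 146, 157 and 147 CPM in shControl_PA and 142, 140 and 153 CPM in shACSL5_PA. The 3 shControl libraries lay above the other 9, which overlapped each other. JUN fell with knockdown (log2 -0.17 ± 0.040, adjusted p = 0.000868) and with palmitic acid in control cells (log2 -0.20 ± 0.040, adjusted p = 0.000762). Neither treatment on top of the other passed, at -0.076 (95% interval -0.16 to 0.0080, adjusted p = 0.196) for palmitic acid and -0.049 (-0.13 to 0.036, adjusted p = 0.339) for knockdown.

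JUNB, a weaker activator than JUN that is itself an immediate early gene, followed the hairpin. It measured 56.3, 55.9 and 60.0 CPM in shControl and 48.7, 48.1 and 43.7 CPM in shACSL5. With palmitic acid it measured 56.6, 59.2 and 55.1 CPM in shControl_PA and 39.1, 42.7 and 42.0 CPM in shACSL5_PA. The 6 libraries with the control hairpin lay above the 6 with the ACSL5 hairpin, and the control groups overlapped each other. Knockdown lowered JUNB without palmitic acid (log2 -0.29 ± 0.057, adjusted p = 0.000106) and with it (-0.47 ± 0.058, adjusted p = 4.91e-07). Palmitic acid lowered it in knockdown cells (log2 -0.18 ± 0.058, adjusted p = 0.0266, a call that held in 16 of 19 alternatives). In control cells the palmitate change was -0.012 (95% interval -0.13 to 0.10, adjusted p = 0.907).

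JUND, the JUN-family member usually expressed in resting cells and known to oppose growth in several cell types, was the 1 JUN-family gene that rose. It measured 39.0, 39.7 and 32.9 CPM in shControl and 72.0, 73.1 and 75.0 CPM in shACSL5. With palmitic acid it measured 54.1, 50.8 and 47.6 CPM in shControl_PA and 77.2, 79.8 and 77.7 CPM in shACSL5_PA. No pair of groups overlapped, and the order was shControl, shControl_PA, shACSL5 and shACSL5_PA from low to high. Knockdown raised JUND 1.97-fold without palmitic acid (log2 0.98 ± 0.062, adjusted p = 4.05e-12) and 1.54-fold with it (log2 0.62 ± 0.060, adjusted p = 1.04e-08). Palmitic acid raised it 1.37-fold in control cells (log2 0.45 ± 0.065, adjusted p = 1.39e-05). In knockdown cells the change was 0.092 (95% interval -0.027 to 0.21, adjusted p = 0.279).

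**Figure D2:**
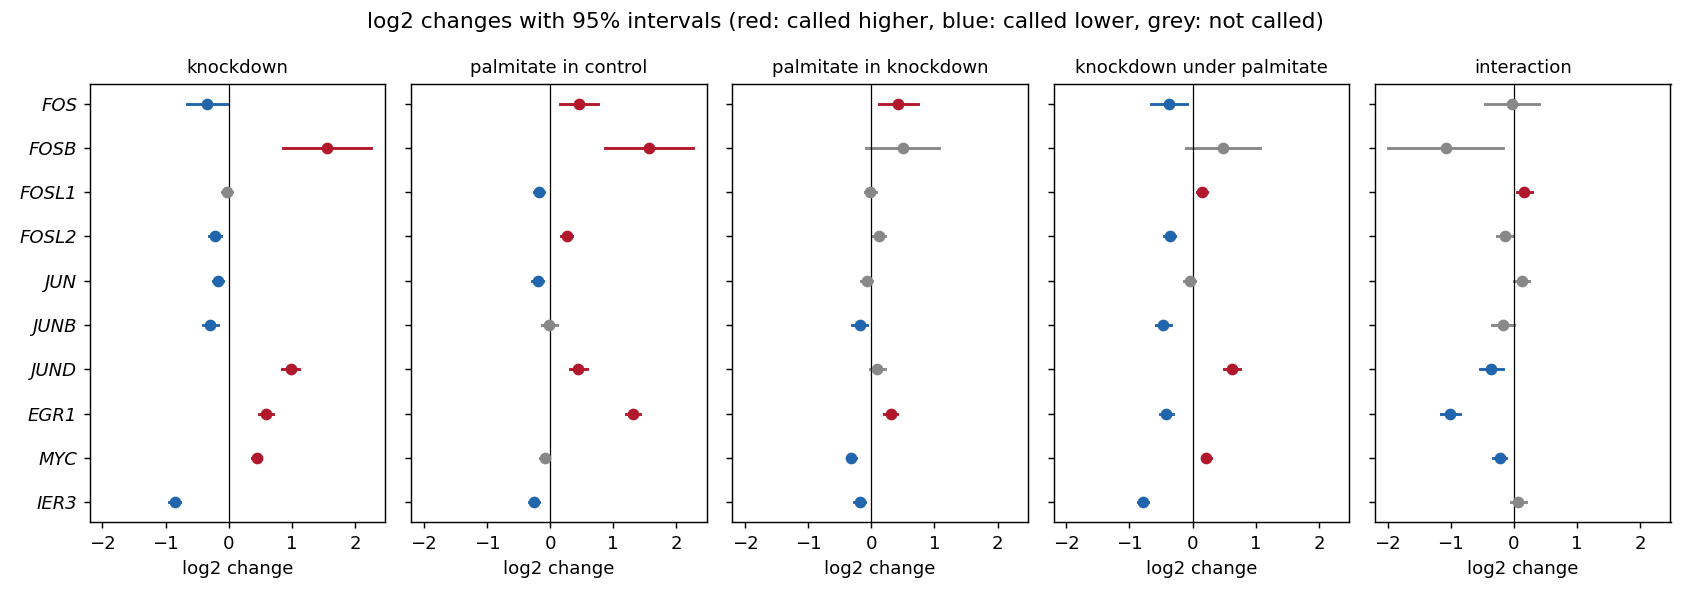
log2 change of each gene (horizontal axis, 0 marked) in 5 panels, the last being the difference of the palmitate responses, knockdown minus control. Points are edgeR estimates and lines 95% intervals, red where called higher, blue where called lower and grey where not called. EGR1 lies right of 0 in the knockdown panel and left of 0 in the knockdown-under-palmitate panel, and the FOSB intervals are the widest.

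EGR1, a zinc-finger factor induced by the same upstream signals as FOS, had the largest palmitate response of the abundant members. It measured 63.2, 56.9 and 60.7 CPM in shControl and 87.3, 86.7 and 98.1 CPM in shACSL5. With palmitic acid it measured 145, 152 and 152 CPM in shControl_PA and 107, 112 and 118 CPM in shACSL5_PA. The 4 groups did not overlap, and the knockdown groups lay between the 2 control groups. Palmitic acid raised EGR1 2.48-fold in control cells (log2 1.31 ± 0.053, adjusted p = 2.14e-14) and 1.24-fold in knockdown cells (log2 0.31 ± 0.051, adjusted p = 0.000133). Knockdown raised it 1.51-fold without palmitic acid (log2 0.59 ± 0.054, adjusted p = 2.12e-09) and lowered it with palmitic acid (log2 -0.41 ± 0.050, adjusted p = 2.89e-07). EGR1 is thus the 1 member called in opposite directions by the 2 knockdown comparisons.

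MYC, which binds E-boxes as a dimer with MAX, rose with the hairpin. It measured 166, 164 and 172 CPM in shControl, 229, 221 and 234 CPM in shACSL5, 155, 159 and 158 CPM in shControl_PA and 184, 183 and 182 CPM in shACSL5_PA. The shACSL5 libraries were highest and the shControl_PA libraries lowest, with no overlap between groups. Knockdown raised MYC 1.36-fold without palmitic acid (log2 0.44 ± 0.034, adjusted p = 1.09e-10) and 1.16-fold with it (log2 0.22 ± 0.035, adjusted p = 1.56e-05). Palmitic acid lowered it in knockdown cells (log2 -0.31 ± 0.034, adjusted p = 5.78e-07). In control cells the palmitate change was -0.087 ± 0.035 (adjusted p = 0.0661), which did not pass although the 3 treated libraries were below the 3 untreated ones.

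IER3, whose product acts in survival signalling downstream of NF-kB and ERK, fell in all 4 comparisons. It measured 214, 223 and 216 CPM in shControl and 121, 118 and 121 CPM in shACSL5. With palmitic acid it measured 181, 177 and 188 CPM in shControl_PA and 113, 102 and 102 CPM in shACSL5_PA. No groups overlapped, and the 6 knockdown libraries were all far below the 6 control libraries. Knockdown left 0.552 of the control level (log2 -0.86 ± 0.041, adjusted p = 2.77e-14) and 0.579 under palmitic acid (log2 -0.79 ± 0.041, adjusted p = 4.74e-13). Palmitic acid lowered IER3 by smaller steps, -0.26 ± 0.040 (adjusted p = 3.42e-05) in control and -0.19 ± 0.042 (adjusted p = 0.00253) in knockdown cells.

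Levels of different genes were compared as CPM per kilobase of exon, the union of all annotated exons, as a description. FOSL1 made up 81.6% ± 0.772 (SD, n = 3) of FOS-family transcripts in shControl, 83.5% ± 0.307 in shACSL5, 76.2% ± 0.658 in shControl_PA and 81.9% ± 0.193 in shACSL5_PA. FOSL2 supplied most of the remainder, and FOS and FOSB together stayed a trace of the family. The JUN family was divided more evenly, and its balance shifted to JUND. JUND was 20.0% ± 1.79 of JUN-family transcripts in shControl and 36.4% ± 0.660 in shACSL5, 27.0% ± 1.42 in shControl_PA and 39.8% ± 1.02 in shACSL5_PA. JUN was 48.5% ± 0.167, 39.9% ± 0.769, 42.0% ± 1.16 and 38.8% ± 1.33, and JUNB 31.5% ± 1.63, 23.8% ± 1.43, 31.0% ± 0.279 and 21.5% ± 0.638, in the same order of groups. The family sum moved little beside these shares, from 100 ± 1.23 CPM per kilobase in shControl to 108 ± 0.604 in shACSL5.

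**Figure D3:**
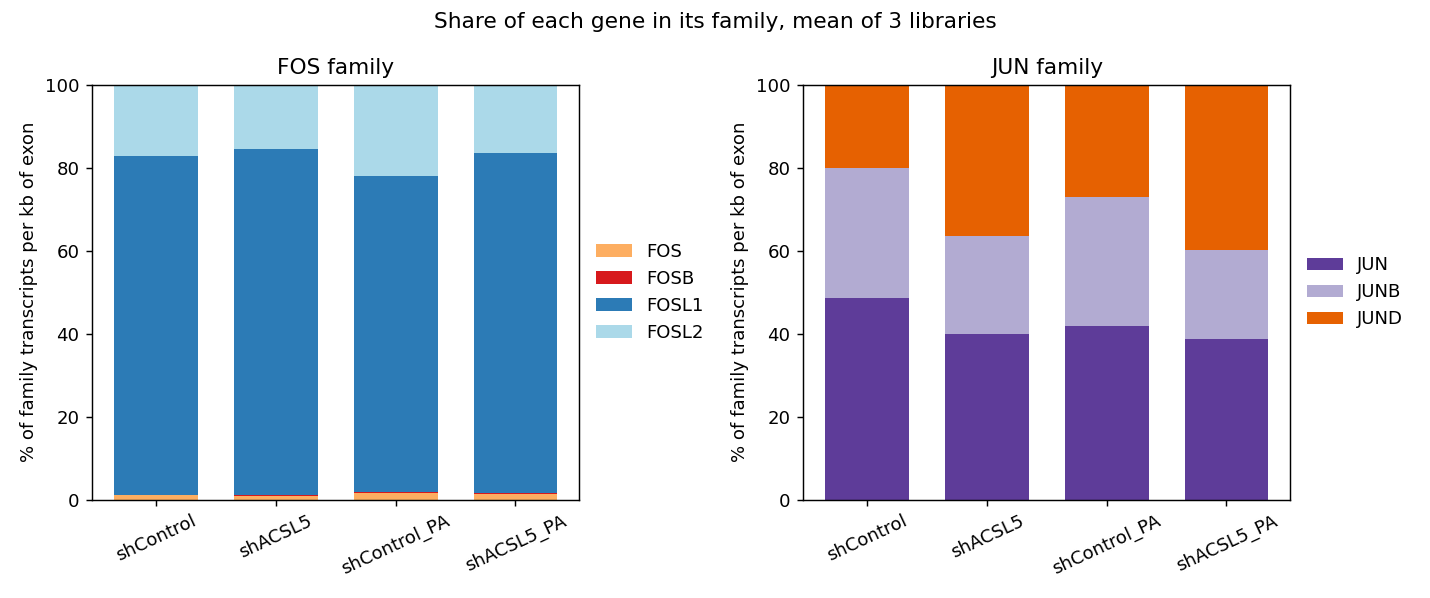
Share of each FOS-family and JUN-family gene in its family (vertical axis, percent of the family's CPM per kilobase of exon), as the mean of 3 libraries in the 4 groups. FOSL1 fills between 76.2% and 83.5% of the FOS-family bar, and JUND grows from 20.0% in shControl to 39.8% in shACSL5_PA.

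Per kilobase, IER3 was the most abundant member in shControl (161 ± 3.27 CPM per kilobase), followed by FOSL1 (114 ± 3.43), MYC (55.8 ± 1.47), JUN (48.5 ± 0.461), JUNB (31.5 ± 1.24), FOSL2 (24.2 ± 1.28), JUND (20.0 ± 2.02), EGR1 (19.2 ± 1.01), FOS (1.57 ± 0.0801) and FOSB (0.111 ± 0.0428). JUND and EGR1 overlapped, and every other neighbour was separated in all libraries. In shACSL5 FOSL1 (113 ± 2.65) stood above IER3 (88.6 ± 1.37), and JUND (39.4 ± 0.809) and EGR1 (28.9 ± 2.05) stood above JUNB (25.7 ± 1.50) and FOSL2 (20.7 ± 0.327). In shControl_PA EGR1 (47.7 ± 1.20) had moved up to the place below MYC (52.5 ± 0.655), and FOSL2 and JUND overlapped. In shACSL5_PA JUND (42.0 ± 0.735) overlapped JUN (41.0 ± 2.03), and JUNB overlapped FOSL2. By the longest transcript in place of the exon union, 2 neighbouring pairs swapped places, IER3 with MYC in shACSL5 and JUNB with FOSL2 in shACSL5_PA.

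The palmitate response was compared between the 2 kinds of cell as an interaction term, knockdown minus control. It passed for 4 of the 10 genes, 1 higher (FOSL1) and 3 lower (JUND, EGR1 and MYC), where 14.5% of all genes passed, 7.15% higher and 7.39% lower (59.9% in place of 49.2% of those calls were higher without TMM scaling). The EGR1 response was lower in knockdown cells, at 0.31 against 1.31, a difference of -1.01 ± 0.073 (log2, adjusted p = 5.96e-09). The JUND response was lower by a difference of -0.36 ± 0.086 (adjusted p = 0.00665). MYC differed by -0.23 ± 0.049 (adjusted p = 0.00262). FOSL1 differed by 0.17 ± 0.055 (adjusted p = 0.0455), a call at the threshold that held in 8 of 18 alternatives.

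FOSB had the most negative difference of the 10, -1.08 with a 95% interval of -1.99 to -0.17, and did not pass (adjusted p = 0.108). The other 5 did not pass either: FOS -0.028 (-0.46 to 0.40), FOSL2 -0.14 (-0.27 to -0.0096), JUN 0.12 (0.0018 to 0.24), JUNB -0.17 (-0.34 to -0.0041) and IER3 0.071 (-0.049 to 0.19), with adjusted p from 0.149 to 0.953. The interval for FOS spans both a smaller and a larger response at this depth.

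**Figure D4:**
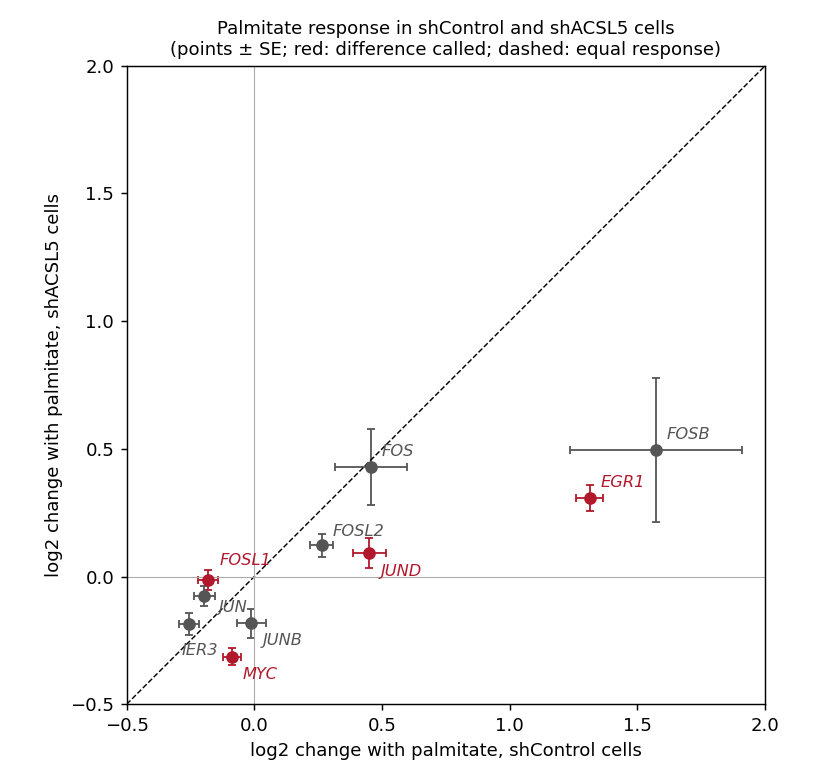
log2 change with palmitic acid in shACSL5 cells (vertical axis) against that in shControl cells (horizontal axis) for each gene, with SE bars and a dashed line of equal responses. Red points are the 4 genes whose responses differed by the test. EGR1 at 1.31 and 0.31 lies farthest below the line among the called genes, and FOS lies on it within its error.

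The genes tied to these factors were taken from lists chosen with earlier results of these data known. Of 24 listed MYC target genes, 21 passed higher and 3 lower after knockdown, with a median log2 change of 0.71 (all genes, -0.020), where 29.7% of all genes passed higher and 32.6% lower. The 3 lower became 1 without shControl replicate 2. The list holds genes that factors other than MYC also control. The named ones were SRM, spermidine synthase, from 65.9 to 178 CPM (log2 1.43 ± 0.051, adjusted p = 2.3e-16), ODC1, ornithine decarboxylase of the same polyamine pathway, from 210 to 405 CPM (log2 0.94 ± 0.033), and NOP56, a nucleolar protein of ribosomal RNA modification, from 229 to 392 CPM (log2 0.78 ± 0.029). With palmitic acid in control cells 19 of the 24 passed, each higher, with a median of 0.26, beside 15.1% of all genes higher. MYC itself did not pass there. ODC1 went from 210 to 338 CPM (log2 0.68 ± 0.033), HSPD1, a mitochondrial chaperonin, from 689 to 954 CPM (log2 0.47 ± 0.029) and LDHA, lactate dehydrogenase, from 1733 to 2212 CPM (log2 0.35 ± 0.020). In knockdown cells 7 passed higher and 3 lower (all genes, 12.1% and 9.78%), with a median of -0.0028. For 17 of the 24 the response differed between the kinds of cell, each lower in knockdown cells, with a median difference of -0.23, beside 7.39% of all genes lower. Under palmitic acid knockdown cells had 18 higher and 4 lower (all genes, 24.4% and 26.1%), among the latter LDHA (log2 -0.47 ± 0.020, adjusted p = 9.29e-15). The dimer partners and competitors of MYC in the MAX network split, with 6 higher and 4 lower of the 10 tested after knockdown (2 lower with DESeq2). MLXIP, a glucose-responsive partner of MLX, was higher (log2 0.70 ± 0.046) and MXI1, a MYC antagonist, lower (-0.48 ± 0.084).

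AP-1 target genes were more often lower than higher after knockdown. Of 24 tested, 12 passed lower and 4 higher (median -0.44), beside 32.6% of all genes lower and 29.7% higher, so the number called in either direction was near the background of 62.3%. Under palmitic acid 16 passed lower and 5 higher (median -0.46), beside 26.1% and 24.4%. In untreated cells, knockdown took PLAU, the urokinase protease, from 302 to 111 CPM (log2 -1.44 ± 0.036, adjusted p = 5.08e-19). There TNC, a matrix glycoprotein, went from 159 to 58.6 CPM (-1.44 ± 0.045) and HMGA1, a chromatin protein, from 2207 to 1264 CPM (-0.80 ± 0.025). Palmitic acid in control cells raised 8 and lowered 7 (all genes, 15.1% and 13.5%), with CXCL8, the neutrophil chemokine interleukin 8, going from 1.69 to 29.2 CPM (log2 4.10 ± 0.14, adjusted p = 1.46e-15) and PTGS2, cyclooxygenase 2, from 6.72 to 53.5 CPM (2.99 ± 0.090). In knockdown cells it raised 10 and lowered 3 (all genes, 12.1% and 9.78%). There CXCL8 rose by 1.88 ± 0.13 and PTGS2 by 1.70 ± 0.097, and both responses were lower than in control cells (differences of -2.22 ± 0.21 and -1.29 ± 0.14, adjusted p = 2.96e-07 and 1.47e-06). Over the list the responses of 6 genes were higher in knockdown cells and those of 4 lower (median difference 0.084, all genes 0.011, with 7.15% higher and 7.39% lower). TNC was among the 6, with a difference of 0.63 ± 0.063 (adjusted p = 5.65e-07). The list holds genes that other factors also control.

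**Figure D5:**
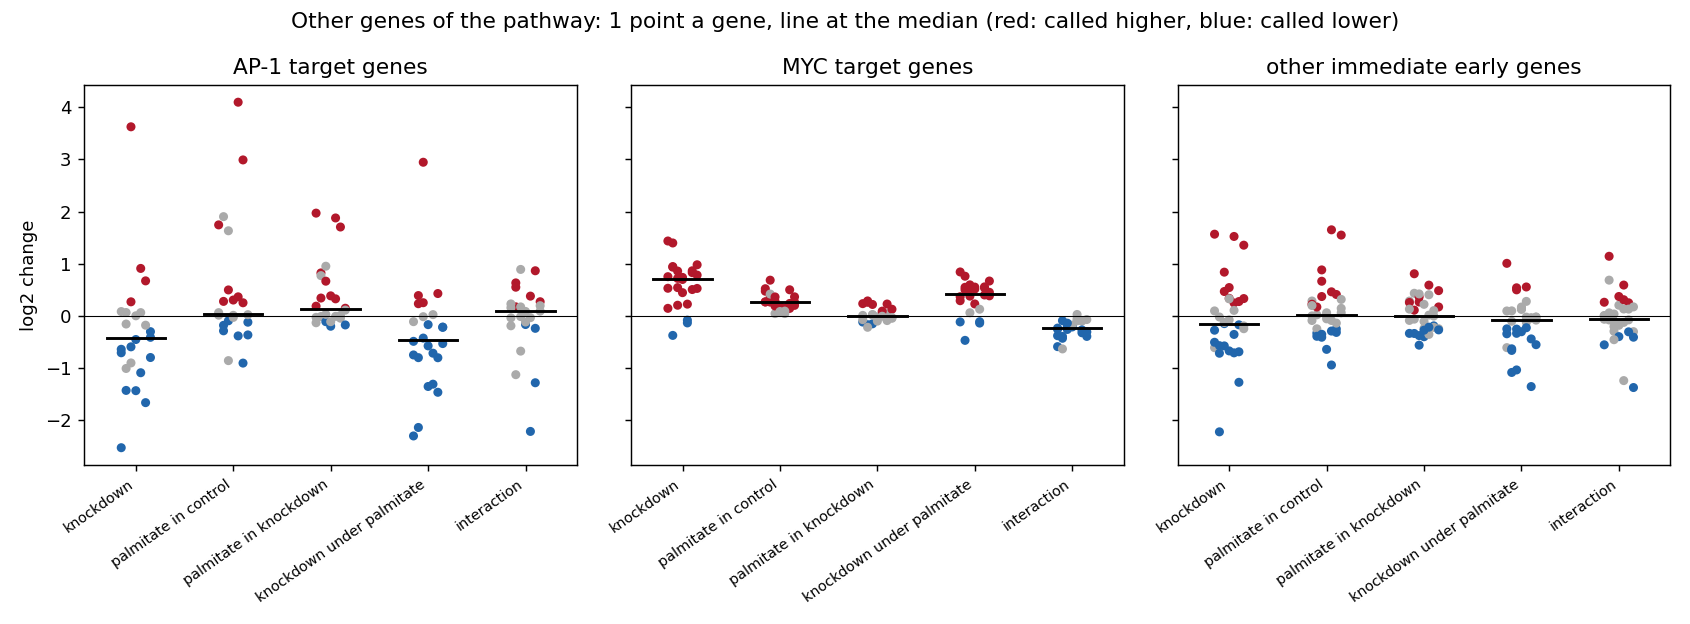
log2 change of each tested gene (vertical axis, 1 point a gene) of 3 lists in the 5 comparisons, red where called higher, blue where called lower and grey where not called, with a line at the median. The median of the MYC target genes lies above 0 after knockdown (0.71) and below 0 in the interaction (-0.23), with single genes on the other side in each. The AP-1 target genes have medians of -0.44 and -0.46 in the 2 knockdown comparisons.

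Of the 33 other immediate early genes tested, 10 passed higher and 13 lower after knockdown, with a median of -0.15, near the background of 29.7% higher and 32.6% lower. DUSP1, the phosphatase that turns off MAP kinases, was higher with each treatment, going from 36.7 to 93.7 CPM with knockdown (log2 1.35 ± 0.048, adjusted p = 1.81e-16) and to 107 CPM with palmitic acid in control cells (1.55 ± 0.048, adjusted p = 1.38e-16). Its palmitate response was lower in knockdown cells by -1.38 ± 0.064 (adjusted p = 3.84e-12). ID3, an inhibitor of helix-loop-helix factors, rose from 41.8 to 124 CPM with knockdown, and BHLHE40, a helix-loop-helix repressor, fell from 99.3 to 21.1 CPM (log2 -2.23 ± 0.056). Palmitic acid in control cells raised 9 and lowered 9 (all genes, 15.1% and 13.5%), and in knockdown cells it raised 8 and lowered 9 (12.1% and 9.78%). Responses of 6 genes were higher and of 5 lower in knockdown cells (7.15% and 7.39%). Knockdown under palmitic acid, where 24.4% of all genes were higher and 26.1% lower, raised 4, including the matricellular gene CCN1 (log2 0.55 ± 0.020), and lowered 13, including the survival gene MCL1 (-0.64 ± 0.027).

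Lists of upstream factors and partners are described for knockdown beside the same background, 62.3% of all genes called, 29.7% higher and 32.6% lower. Kinases of the ERK, JNK and p38 cascades had 6 higher and 9 lower of 18 tested. MAP2K3, which activates p38, rose from 59.4 to 112 CPM (log2 0.92 ± 0.047) and MAP2K7, which activates JNK, from 45.3 to 81.2 CPM (0.84 ± 0.049). MAPK8, which encodes the JUN kinase JNK1, fell from 107 to 60.0 CPM (-0.84 ± 0.053, adjusted p = 3.39e-12). Of 10 genes of serum response factor (SRF), its partners and ETS-family factors, 4 were higher and 4 lower. ETV4, an ETS-family factor, rose from 53.6 to 108 CPM (log2 1.01 ± 0.047). ELK3, an SRF partner, fell from 383 to 274 CPM (-0.49 ± 0.035). Other leucine-zipper factors that can pair with or replace AP-1 proteins had 4 higher and 5 lower of 14, near that background. ATF2, a JUN partner, fell from 71.5 to 32.4 CPM (log2 -1.14 ± 0.063, adjusted p = 3.49e-13), CREB1 fell from 75.1 to 46.6 CPM (-0.69 ± 0.065) and MAFG rose from 88.9 to 137 CPM (0.63 ± 0.038). ATF3, a stress-induced member, rose with palmitic acid in control cells from 6.92 to 13.2 CPM (log2 0.93 ± 0.12, adjusted p = 2.49e-06), and its response was lower in knockdown cells by -0.66 ± 0.16.

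Both EGR1 corepressors fell after knockdown, where 32.6% of all genes passed lower. NAB1 went from 48.2 to 32.9 CPM (log2 -0.55 ± 0.063, adjusted p = 8.34e-08) and NAB2, itself an EGR1 target, from 41.0 to 27.5 CPM (-0.57 ± 0.073, adjusted p = 3.54e-07). NAB2 also fell with palmitic acid in control cells (-0.31 ± 0.072, adjusted p = 0.00244), where EGR1 rose and 13.5% of all genes passed lower. In knockdown cells, where EGR1 also rose, NAB1 was higher with palmitic acid (log2 0.20 ± 0.064, adjusted p = 0.0271). The NAB2 response was higher in knockdown than in control cells, by 0.48 ± 0.10 (adjusted p = 0.00264). Among 8 genes of JUN and MYC protein turnover, 3 fell and 1 rose after knockdown, beside 62.3% of all genes called. SKP2, a ubiquitin ligase subunit that acts on MYC, fell from 54.2 to 22.9 CPM (log2 -1.24 ± 0.069, adjusted p = 4.16e-13). Of 5 NF-kB feedback genes, which share upstream signals with IER3, 4 rose with palmitic acid in control cells (all genes, 15.1% higher) while IER3 fell. NFKBIA, the NF-kB inhibitor, went from 31.5 to 63.6 CPM (log2 1.02 ± 0.057) and TNFAIP3, the deubiquitinase A20, from 4.96 to 13.3 CPM (1.42 ± 0.15), and both responses were lower in knockdown cells (by -0.80 ± 0.081 and -1.53 ± 0.21, adjusted p = 6.45e-07 and 3.0e-05). BATF, MAF, MAPK10, EGR4, NPAS4, MMP9, MMP13, SPP1 and MYCN were on these lists and did not pass the filter on low counts.

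Likeness was taken as the root mean square difference between centred mean log2 levels over the 4 groups, with a pseudocount of 0.5 CPM, among 10938 genes with a mean of at least 5 CPM. With 4 points for each gene many genes come close by this measure. The nearest genes to EGR1 were SQSTM1, the autophagy receptor p62 (0.114), TNFAIP3 (0.146) and DDIT3, the stress factor CHOP (0.156). SQSTM1 measured 324, 488, 668 and 599 CPM in shControl, shACSL5, shControl_PA and shACSL5_PA, and the same 3 genes were nearest with a pseudocount of 0.01 CPM. For FOSB, at 0.342 to 2.85 CPM, the pseudocount set the distances. HDAC9 was at 0.0679 with 0.5 CPM and at 0.280 with 0.01 CPM, PPP1R15A, which encodes the stress phosphatase subunit GADD34, at 0.0738 and 0.311, and ODC1 at 0.151 and 0.383. The nearest genes were KRT10-AS1, SLC17A9 and CTU1 for JUND, IFT46, PRMT2 and RGMB for MYC, and SLCO4A1-AS1, HTR2C and EBF4 for IER3. They were PDE10A, ZGPAT and CEP152 for FOS, NCOA6, ACAD9 and PALLD for FOSL1, NCOA7, ITGB3BP and CRELD2 for FOSL2, SEMA4C, SFMBT1 and NAPEPLD for JUN, and CEP131, RP11-1002K11.1 and MAP4K5 for JUNB. With 0.01 CPM these 3 genes were again the nearest for FOSL1, and for each of the others named here at least 1 of the 3 was replaced. Within the 10 genes, the closest pair was FOSL1 with JUN (0.0877, or 0.0880 with 0.01 CPM). Both had the smallest ranges of the 10 over the groups (0.179 and 0.244, log2), and flat profiles come close by this measure. Knockdown in untreated cells lowered JUN and was not called for FOSL1.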

How the data were processed

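PolyA RNA of 12 LM3 libraries was analysed from the raw read counts per gene that the authors deposited, without normalization. The tools named per the submitters' processing notes are HISAT2 2.1.0, fastp 0.22.0 and featureCounts, on GRCh38. No annotation release or strand setting was given in the sources used here. Groups and replicate numbers came from the labels. Counts were fitted in 1 model over all 12 libraries with edgeR 4.0.16 (R 4.3.3): filterByExpr kept 14706 of 57730 genes, TMM factors ran from 0.986 to 1.03, and quasi-likelihood tests were adjusted by Benjamini-Hochberg, with an adjusted p under 0.05 called. CPM values are scaled by TMM, except those of the cell type markers, which are scaled by library totals alone. Each SE is the log2 change divided by the square root of the quasi-likelihood F. The fit was tested on simulated counts with far fewer changed genes than these data and without a palmitate effect. That test therefore does not vouch for the calls made here. Lengths came from GENCODE 29 and promoters from RefSeq. Counts carry no molecular identifiers, so depth speaks to counting error only. The alternatives were DESeq2 1.42.0, other scalings and filters, a replicate block, fits of the compared groups alone and leaving out each of the 12 libraries. The 10 members, the lists and the motifs were chosen with earlier results of these data known. Named by rule were all members, up to 3 called genes of smallest p with a mean of at least 5 CPM for each list and comparison, and the 3 genes most like each member.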

Additional observations from a re-analysis of the deposited data

Results flagged for a closer look

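The palmitate response differed between knockdown and control cells, by the interaction test, for 4 of the 10 genes. The difference (log2, knockdown minus control) was -1.01 for EGR1, -0.36 for JUND, -0.23 for MYC and 0.17 for FOSL1. The first 3 held in all 18 alternatives, and that of FOSL1 in 8. Groups of 3 libraries were not searched for single deviating samples.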

How the results depend on the processing

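Of 940 values of the 10 genes under the alternatives, 876 kept their direction and their side of the threshold, 50 lost a call, 7 gained one and 7 changed sign. Those that changed sign were uncalled and near 0: JUNB with palmitic acid in control cells was 0.00037 with DESeq2 and -0.039 to 0.023 with a library left out, FOSL1 with palmitic acid in knockdown cells -0.054 to 0.0095 with a library left out, and the FOS interaction -0.12 to 0.073. Of 64 changed values, 38 were of FOS. The number of the 10 called with palmitic acid in knockdown cells, 5, ran from 3 to 6 with a library left out, and was 3 without shACSL5 replicate 2. The other 4 counts stayed at 8 to 9 (knockdown), 7 to 9 (palmitic acid in control cells), 7 to 8 (knockdown under palmitic acid) and 3 to 4 (interaction). MYC with palmitic acid in control cells gained a call in 2 alternatives, and FOSL2 with palmitic acid in knockdown cells in 4. The causes were not tested. In alternatives chosen after seeing the data, the listed MYC targets called higher after knockdown stayed at 21 and those called lower at 1 to 3, the AP-1 targets called lower at 12, or at 15 to 16 under palmitic acid, and the MAX network genes called lower at 2 to 4. A pseudocount of 0.01 CPM in the likeness measure, also added after seeing the data, changed the 3 genes nearest to 8 of the 10 members.

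With the replicate block, 8, 8, 6, 8 and 4 of the 10 were called in knockdown, palmitic acid in control and in knockdown cells, knockdown under palmitic acid and the interaction. The 18 same-numbered pairs of libraries had correlations of deviations from -0.035 to 0.10, 1 of them over 0.1. Pairs of other numbers ran from -0.079 to 0.10, and 8 of 12 libraries correlated best with their own number. Each library had fewer partners of its own number than of other numbers, so an even draw would give fewer than 8. The main fit left out any such pairing. The labels do not say whether equal numbers mark a pairing. Depth limits FOSB, with 6 to 58 counts a library, and FOS, with 66 to 128.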
